A study of Homo sapiens with 16 samples.

Results

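RNASE4, ANG, RNASE1 and RNASE7 code for secreted ribonucleases and were followed over a time course of HER2 inhibition in MCF10A cells. RNASE4 was chosen by its measured rise from 0 to 9 hours to 36 to 45 hours in these same arrays, and ANG, RNASE1 and RNASE7 are listed with it as secreted relatives. Every array row that carries one of the 4 symbols was kept separate, which gave 6 rows of 20589. RNASE4 had 3 rows and the other genes had 1 each. MCF10A cells are breast epithelial cells of human origin that are not transformed. Cells were grown in serum-free medium with insulin, epidermal growth factor and hydrocortisone, and all plates received fresh medium when CP724,714, an inhibitor of the HER2 kinase, was added at 1 µM. RNA was taken from parallel plates every 3 hours from 0 to 45 hours and hybridized to Illumina human Ref8v2 arrays, with 1 array for each of 16 time points. The 0 hour cells were untreated, and the other 15 groups differed only in hours of inhibition. No time point was replicated and no course without inhibitor was analysed here, so inhibition, fresh medium and time in culture cannot be told apart. Each RNA sample is from a whole plate, so more cells expressing a gene and more RNA per cell cannot be told apart either.

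Ribonucleases of the RNase A superfamily are small, disulfide-bonded proteins that cells secrete and that cleave RNA after pyrimidines. RNASE4 cleaves after uridine. ANG codes for angiogenin, a weak ribonuclease that stimulates blood vessel growth and cuts tRNA in stressed cells. RNASE1 degrades RNA in the circulation and is abundant in endothelium, and RNASE7 kills bacteria at epithelial surfaces. Inside the cell these enzymes are bound and blocked by the ribonuclease inhibitor RNH1. RNASE4 and ANG overlap on chromosome 14 and share noncoding first exons, with a separate coding exon for each protein.

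All 4 genes were found in the RefSeq promoter table (GRCh38.p14), which holds windows of 250 bases before and 50 bases after annotated starts. ANG has 3 windows and RNASE4 has 2, and both windows of RNASE4 are also windows of ANG. RNASE1 has 2 and RNASE7 has 1, and neither shares any. An identical window in another gene is uncommon, since 325 of 27305 genes (1.19%) have one. The 250 bases before both shared starts are shown because RNASE4 and ANG moved together over the course. The first lies at chr14:20684310-20684559 and the second at chr14:20688514-20688763, both on the plus strand. Capitals mark GGGCGG, the GC box, in the first and CCAAT, the CCAAT box, in the second.

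RNASE4 and ANG, first shared start: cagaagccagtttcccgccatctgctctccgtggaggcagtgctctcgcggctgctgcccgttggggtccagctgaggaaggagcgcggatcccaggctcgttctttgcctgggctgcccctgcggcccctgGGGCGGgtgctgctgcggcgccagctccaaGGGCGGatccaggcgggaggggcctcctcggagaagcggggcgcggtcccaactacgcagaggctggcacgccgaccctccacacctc
RNASE4 and ANG, second shared start: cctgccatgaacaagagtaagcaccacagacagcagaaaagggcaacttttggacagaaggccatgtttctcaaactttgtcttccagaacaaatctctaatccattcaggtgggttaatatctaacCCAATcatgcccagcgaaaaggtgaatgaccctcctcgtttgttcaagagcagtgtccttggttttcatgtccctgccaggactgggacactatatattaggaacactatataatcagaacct

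The shared windows differ in composition. The first window of 300 bases is 69.3% G and C and holds the GC box at 2 places, and the second is 45.7% G and C and holds the CCAAT box at 1 place. On either strand, 44.9% of all 34943 windows hold GGGCGG and 34.6% hold CCAAT. Neither shared window holds the exact letters TATAAA of the TATA box (11.6% of all windows do), on either strand. The same is true of the E-box CACGTG (7.23%) and the FOXO motif GTAAACA (3.42%). Looser forms of these motifs were not searched for, and the second shared sequence holds TATATA near its end. The marked matches do not overlap each other. The array rows do not show from which start a transcript came.

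The deposited intensities of RNASE4 were flat for 33 hours on one row and dipped on another, and both then rose steeply at 36 hours. On row ILMN_16267, which is the row that chose the gene, the intensities at 0, 3, 6 and 9 hours were 298, 273, 306 and 306. They were 268, 276, 251 and 284 at 12, 15, 18 and 21 hours, and 250, 252, 272 and 302 at 24, 27, 30 and 33 hours. At 36, 39, 42 and 45 hours they were 892, 1028, 1044 and 1140. Every one of the last 4 arrays was thus above every earlier array, and none of the earlier 12 stood apart. The row was above background on all 16 arrays (detection p under 0.05), but the earlier intensities were close to the mean of the negative control beads, which was inferred to lie between 166 and 199.

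After background correction, quantile normalization and log2 transformation, this row stood at 6.85 ± 0.16 in the window of 0 to 9 hours (SD, n = 4 time points). The next windows, of 12 to 21 and 24 to 33 hours, had means of 6.58 ± 0.19 and 6.72 ± 0.25, and the last, of 36 to 45 hours, had 9.79 ± 0.32. Its log2 change from the first to the last window was 2.95 (standard error 0.16), a 7.71-fold increase, and from the third to the last it was 3.07. The change from first to last ranked 4 of 11957 tested probes. The rule that chose RNASE4 took the 5 largest increases, and the values on either side of its limit were 2.81 for TSC22D3 and 2.77 for LEMD1. No test is given for RNASE4, because these values chose it. The size depends on the background correction, since the log2 change was 1.90 without it. The direction and the height of the last 4 arrays do not depend on it, as the deposited intensities show.

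The brighter RNASE4 row, ILMN_21326, had another early course. Its intensities were 622, 701, 737 and 592 in the first window and 458, 385, 377 and 390 in the second. They were 386, 355, 364 and 403 in the third and 1011, 928, 965 and 890 in the last. All 8 arrays from 12 to 33 hours lay below all 4 of the first window, and these lay below all 4 of the last. On the normalized log2 scale the window means were 8.98 ± 0.22, 7.82 ± 0.21, 7.68 ± 0.15 and 9.66 ± 0.04. The level therefore fell 2.24-fold from the first to the second window, rose 3.96-fold from the third to the fourth and ended 1.60-fold above its start (log2 change of 0.68, standard error 0.13). The 2 rows of RNASE4 agree on the late rise and differ in its size and in the early fall, with log2 changes of -0.26 and -1.17 from the first to the second window.

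The third RNASE4 row, ILMN_21567, was not above background on any array. Its intensities lay between 170 and 219, around the negative control level, and it was not tested. The file gives no probe sequences, and the gene table lists RNASE4 also as a synonym of ANG, so the transcript that each row reads is not known here.

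**Figure D1:**
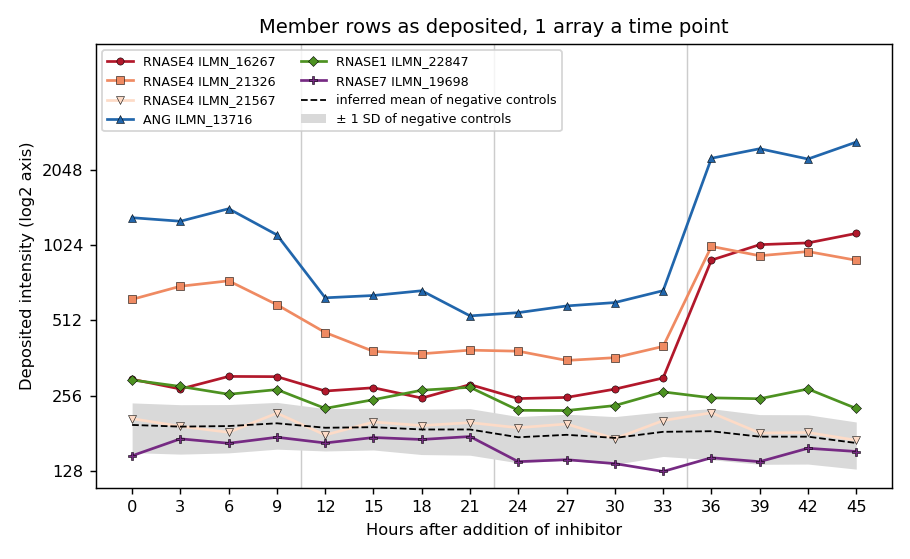
Deposited intensity (log2 axis) of the 6 rows at each of 16 time points, with 1 array for each point. The dashed line and grey band are the inferred mean and 1 SD of the negative control beads, and grey vertical lines separate the 4 windows. The last 4 arrays are the highest of ANG and of RNASE4 rows ILMN_16267 and ILMN_21326, while RNASE7 and RNASE4 row ILMN_21567 stay near the negative controls.

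ANG fell with RNASE4 row ILMN_21326 and then rose with both RNASE4 rows above background. Its single row, ILMN_13716, had intensities of 1317, 1275, 1430 and 1124 at 0, 3, 6 and 9 hours. They dropped to 631, 644, 673 and 534 at 12 to 21 hours and stayed at 550, 585, 604 and 673 at 24 to 33 hours. At 36, 39, 42 and 45 hours they were 2274, 2482, 2258 and 2639. The 3 levels do not overlap, with the middle 8 arrays lowest and the last 4 highest. The normalized log2 means were 10.19 ± 0.19, 8.78 ± 0.20, 8.69 ± 0.16 and 11.20 ± 0.23 (SD over the 4 time points of a window). ANG was thus 2.66-fold lower in the second window than in the first and 5.67-fold higher in the last than in the third.

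From the first to the last window ANG rose by 1.00 on the log2 scale, with a standard error of 0.13 (adjusted p = 2.47e-05, limma). The same call of a higher level was made for 16.2% of all tested probes, and a lower level was called for 15.0%. The course of ANG was also time-dependent (adjusted p = 8.37e-06, limma's test of a spline of time), as were 54.6% of all tested probes. A straight line in time gave an adjusted p of 0.389 (limma) for ANG, whose course turns from a fall to a rise. The windows hold consecutive time points and not replicates, so the spread behind these p-values includes change within a window. ANG was also listed with earlier results of these data known, and its course is close to that of RNASE4 row ILMN_21326. Its p-values are therefore not independent of the choice of RNASE4.

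RNASE1 did not pass either test. Its row, ILMN_22847, was above background on 14 of 16 arrays and dim on all of them, with a lowest intensity of 224 and a highest of 296, at 0 hours. At 0, 3, 6 and 9 hours it read 296, 279, 260 and 271, and at 36, 39, 42 and 45 hours 251, 249, 273 and 228. The first and last windows overlapped, with normalized log2 means of 6.60 ± 0.22 and 6.56 ± 0.19. Its change on the log2 scale, -0.04 with a standard error of 0.16, did not pass (adjusted p = 0.873, limma), nor did its spline (adjusted p = 0.196, limma). At this signal over background a small change could be missed. RNASE7 (row ILMN_19698) was not above background on any array, with intensities from 128 to 176, so it gives no course and was not tested.

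**Figure D2:**
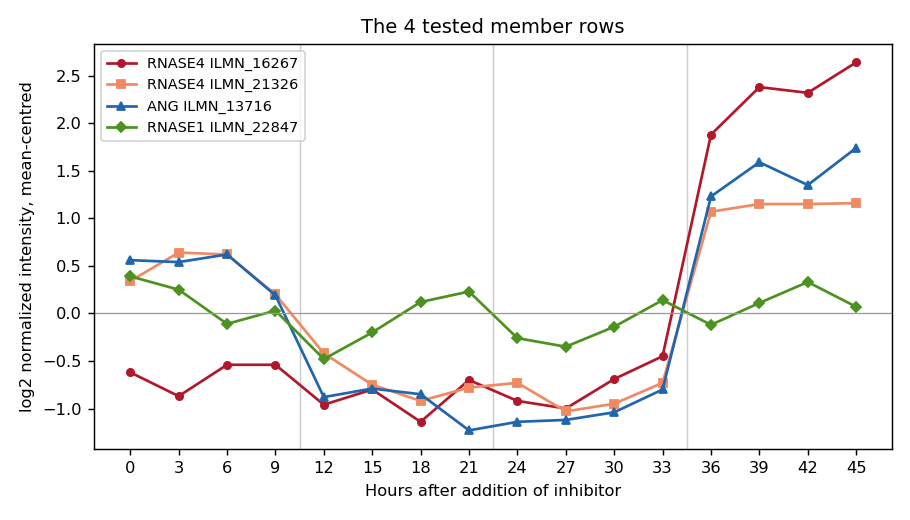
Mean-centred log2 normalized intensity of the 4 tested rows against hours of inhibition, with 1 array for each point and grey lines between the 4 windows. ANG and RNASE4 row ILMN_21326 fall by 12 hours and all 3 rows of ANG and RNASE4 rise between 33 and 36 hours, while RNASE1 shows no such step.

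Most of the rise of RNASE4 and ANG lay in a single interval of 3 hours, and RNASE4 row ILMN_16267 and ANG were higher still at 45 hours than at 36 hours. From 33 to 36 hours the normalized level rose 5.02-fold on RNASE4 row ILMN_16267, 3.47-fold on ILMN_21326 and 4.08-fold for ANG, and for each it was the largest step of the course. RNASE1 had a log2 step of -0.26. In the deposited intensities the same steps were 2.95-fold, 2.51-fold and 3.38-fold, and the inferred mean of the negative controls was 184 at 33 hours and 185 at 36 hours. Thus 3 of the 4 tested rows were at least 1.7-fold higher at 36 hours, against 3.41% of all tested probes. By the size of this step they ranked 6, 22 and 12 of 11957, in the order above. On these 3 rows each of the last 4 arrays was also above each of the other 12, as it was for 8.16% of all tested probes. Whether plates or arrays were handled differently from 36 hours on is not in the labels and was not tested.

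The earlier fall was spread less evenly. ANG was 2.11-fold lower at 12 hours than at 9 hours, the only one of the 4 rows past 1.7-fold at this step, against 3.08% of all tested probes. RNASE4 row ILMN_21326 was 1.53-fold lower at this step and went on falling to 18 hours. On ANG and on this RNASE4 row each array from 12 to 33 hours was below each of the other 8, which held for 4.73% of all tested probes. These shares describe rows whose courses had been seen, and they are not tests.

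**Figure D3:**
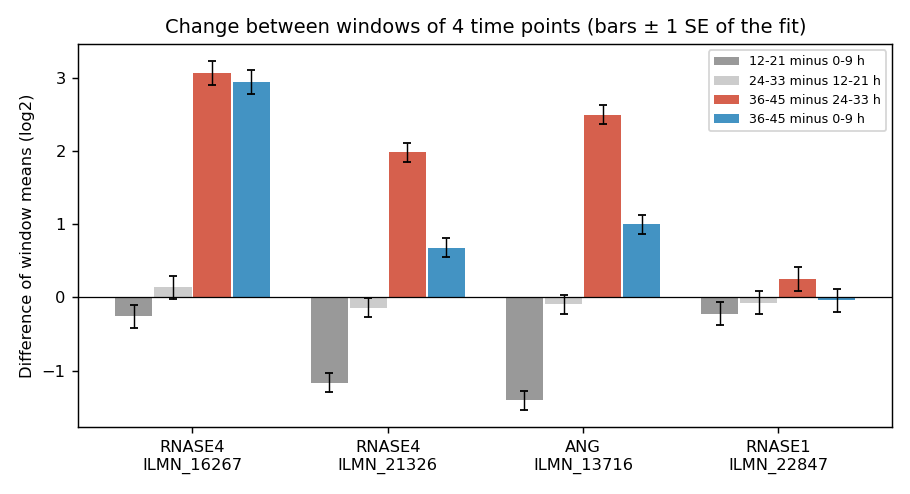
Differences between the means of consecutive windows and between the last and the first window, on the log2 scale, for the 4 tested rows. Error bars are 1 standard error of the fit over all 16 arrays. The change from the third to the last window is 3.07, 1.99 and 2.50 for the 2 RNASE4 rows and ANG, and 0.25 for RNASE1.

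Across the 16 arrays the course of RNASE4 row ILMN_21326 was closer to that of ANG (Pearson r = 0.98) than to that of the other RNASE4 row (r = 0.80). Over the 12 arrays from 0 to 33 hours, before the late rise, these values were 0.96 and 0.41. RNASE4 row ILMN_16267 and ANG had r = 0.84 over all arrays and 0.43 over the first 12, and RNASE1 had r of 0.29 to 0.44 with the other 3 rows. On log2 of the deposited intensities the values for RNASE1 were lower, at -0.06 and 0.23 with the RNASE4 rows and 0.20 with ANG. These correlations are descriptions, since all rows share the same arrays and background correction. Row ILMN_16267 up to 33 hours and RNASE1 on all arrays were close to the negative control level, so noise can lower their r.

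Genes with a course most like that of RNASE4 were found among those that changed at least 2-fold from the first to the last window. For the brighter row, ILMN_21326, they were HIST1H2BD, a histone H2B (r = 0.963), RGC32, a cell cycle regulator (0.951), SEPP1, a secreted selenium carrier (0.944), CALCOCO1, a coactivator and autophagy receptor (0.942), and HSD11B2, which inactivates cortisol (0.929), each over 16 arrays. HIST1H2BD stood at log2 means of 10.69, 8.23, 8.73 and 11.89 in the 4 windows and HSD11B2 at 9.47, 8.67, 8.63 and 10.81. In all, 207 of the 11957 tested probes had r above 0.9 with this row, so many probes share the course. This count includes the row itself and ANG.

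For the other row, ILMN_16267, the 5 most alike, looked up after the values were seen, were BNIPL, C6orf32, C9orf111, EFNB3 and TNFSF10, with r from 0.974 to 0.983. TNFSF10 codes for the death ligand TRAIL and EFNB3 for an ephrin. BNIPL stood at 6.75, 6.41, 6.87 and 9.27 in the 4 windows. C6orf32, TNFSF10, C9orf111 and EFNB3 were above background on 4, 6, 8 and 11 of the 16 arrays, and SEPP1, listed for the brighter row, on 10. On the other arrays their values are those of background. With row ILMN_16267, 244 probes had r above 0.9, the row itself included.

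**Figure D4:**
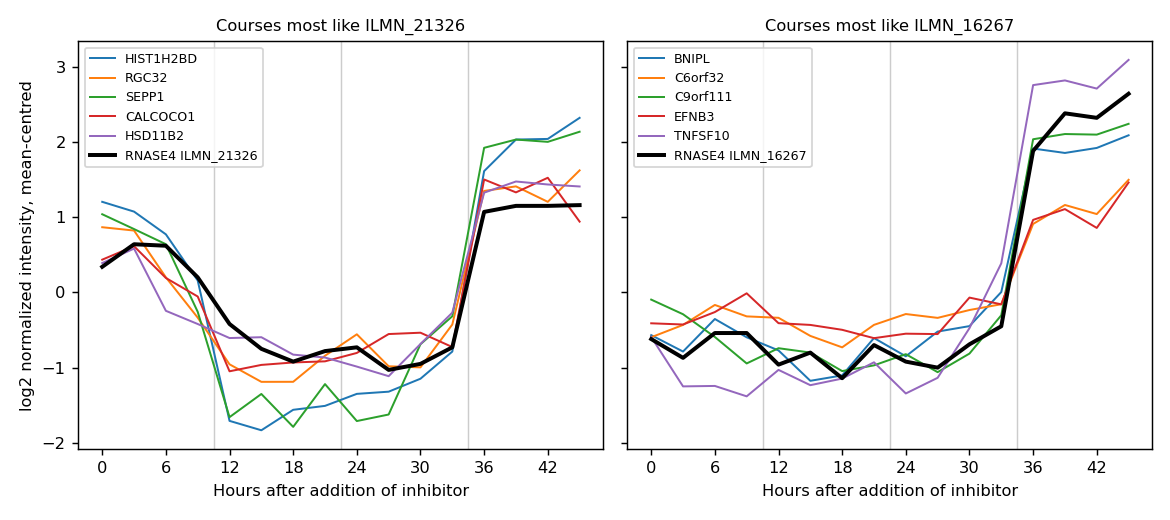
Mean-centred log2 normalized intensity of the 5 genes most like each RNASE4 row (thin lines) and of that row (thick black line) against hours of inhibition. Courses on the left fall by 12 hours and rise at 36 hours, and those on the right are lower on every array up to 33 hours than from 36 hours on. Some climb before 36 hours, such as TNFSF10 on the right (-1.34 at 24 hours, 0.39 at 33 hours) and SEPP1 on the left (-1.62 at 27 hours, -0.32 at 33 hours).

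Few other genes of the ribonuclease cluster gave a course to set beside the late rise. Of 9 further RNase A genes on the array (RNASE2, RNASE3, RNASE6 and RNASE8 to RNASE13), 8 were not above background on any array and so show no course. RNASE10 was tested and not called, at -0.34 on the log2 scale with a standard error of 0.18 (adjusted p = 0.153, limma). Of 25 listed neighbours on chromosome 14, 16 were tested, and 2 were higher and 2 lower at 36 to 45 than at 0 to 9 hours, with a median log2 change of -0.06 against -0.02 over all tested probes. These counts are near the background of 16.2% higher and 15.0% lower. CCNB1IP1, a ubiquitin ligase, and HNRNPC, an RNA-binding protein, rose by 0.51 and 0.24 on the log2 scale (adjusted p = 0.00403 and adjusted p = 0.00376, limma). The call of CCNB1IP1 was lost when the step between 21 and 24 hours was left out, although its log2 change stayed at 0.48 (adjusted p = 0.0769, limma). PNP, which splits purine nucleosides, had a log2 change of -0.91 (adjusted p = 0.000757, limma), and PARP2, a DNA repair enzyme, of -0.42 (adjusted p = 0.0451, limma), a call that was lost with most of the alternatives, over which the log2 change lay between -0.56 and -0.25. From the third to the last window, the 17 tested rows of RNASE10 and the neighbours had log2 changes from -1.08 to 0.87, all below the 1.99 to 3.07 of ANG and RNASE4. RNASE4 was chosen by its late rise and ANG was listed with earlier results known, so this comparison is a description and not a test.

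**Figure D5:**
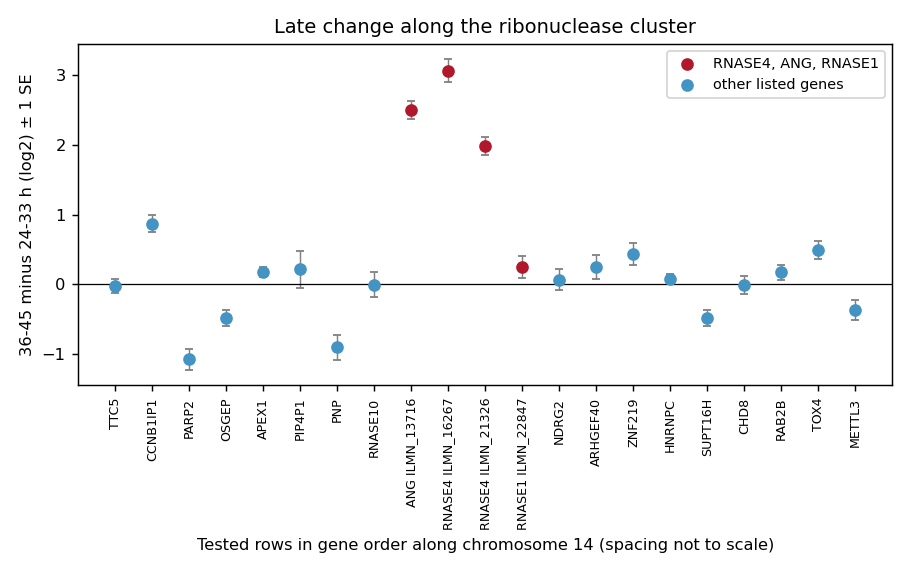
Log2 change from the window of 24 to 33 hours to that of 36 to 45 (± 1 standard error) for the tested rows of the ribonuclease cluster and its neighbours, in gene order along chromosome 14 and not to scale. ANG and the 2 RNASE4 rows lie at 1.99 to 3.07, and the other listed genes between -1.08 and 0.87. RNASE4 was chosen by its late rise, so the contrast is a description.

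The ribonuclease inhibitor RNH1 was above background on all arrays, with intensities from 1064 to 1556. Its log2 change of -0.12 (standard error 0.11) did not pass the test (adjusted p = 0.442, limma). NSUN2, a methyltransferase whose mark protects tRNA from angiogenin, had a log2 change of -0.34 that did not pass this test (adjusted p = 0.124, limma). The change of NSUN2 passed without the 0 hour array, at -0.50 (adjusted p = 0.0147, limma), and without the 3 hour array, at -0.46. By limma's test of a spline of time, NSUN2 was time-dependent (adjusted p = 0.00157), as were 54.6% of all tested probes. RNH1 was not (adjusted p = 0.467, the same test). DNMT2, the other such methyltransferase, was not above background on any array.

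Among 15 tested ribonucleases of other families, none was higher at 36 to 45 hours at an adjusted p under 0.05 in limma and 3 were lower, with a list median of 0.04. A lower level was called for 15.0% of all tested probes, so this count is near the background. ISG20, an interferon-induced exonuclease, fell by 1.13 on the log2 scale (adjusted p = 0.000427, limma). Its log2 difference was -1.90 between the second and the first window and 0.79 between the last and the third, so its level dipped and partly rose again. For RNASEH2A the same differences were 0.74 and -1.12, the other way round. RNASEH2A, which removes RNA from RNA-DNA hybrids, fell by 0.56 (adjusted p = 0.00915, limma) and ENDOG, a mitochondrial nuclease, fell by 0.43 (adjusted p = 0.00119, limma). The call of ENDOG was lost under median scaling, at -0.28. The secreted RNASET2 was not called in the main comparison, at 0.20 (adjusted p = 0.0785, limma), but was called higher under median scaling, at 0.32. It was also called higher for 42 and 45 against 0 and 3 hours, at 0.37 (adjusted p = 0.0053, limma), and without the 36 hour array, at 0.25 (adjusted p = 0.0369, limma). The other 22 alternatives did not call RNASET2, and without the 45 hour array its log2 change was 0.12. The call of RNASEH2A was lost when the step between 21 and 24 hours was left out, with a log2 change of -0.38.

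Antimicrobial proteins of epithelia, the class to which RNASE7 belongs, were called higher for 4 of 8 tested genes and lower for 1, against 16.2% and 15.0% of all tested probes, with a list median of 0.29. The calcium-binding S100A8 and S100A9 rose by 1.17 and 0.92 on the log2 scale, the defensin DEFB1 by 0.89 and the elastase inhibitor PI3 by 0.48 (adjusted p = 6.44e-08, adjusted p = 2.59e-05, adjusted p = 1.65e-05 and adjusted p = 5.96e-05, limma). LCN2, which binds bacterial iron carriers, fell by 1.69 (adjusted p = 1.84e-07, limma). DEFB1 had a log2 difference of -0.79 between the second and the first window and of 1.82 between the last and the third, so its course also dipped. The call of PI3 was lost when the step between 21 and 24 hours was left out, with a log2 change of 0.27.

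The cell type was checked against marker genes. The keratins KRT5, KRT17 and KRT18 were above background on all arrays, and KRT14 on 1. All 4 fibroblast markers were not above background on any array. Of 5 endothelial markers, which bear on RNASE1, CDH5 and VWF were at background on every array, TEK was above it on 2 arrays, KDR on 15 with intensities up to 270, and PECAM1 on 15 with intensities up to 362. PECAM1 rose by 0.84 on the log2 scale from the first to the last window (adjusted p = 0.000297, limma), and its level was already up in the second. Over the arrays of the 4 windows the summed deposited intensity of the 5 endothelial markers ranged over 1045 to 1109, 1083 to 1201, 1073 to 1128 and 952 to 1138, in order of time. Background was not subtracted from these sums. Its inferred mean was 166 to 199 for a single row, so much of each sum is background. Of 3 blood markers, CD3E was at background, PTPRC was above it on 5 arrays, and CD14 was at least 2.74-fold higher at 36 to 45 than at 0 to 9 hours (adjusted p = 1.33e-07, limma). The part of these genes in the courses of RNASE4 and ANG was not tested.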

How the data were processed

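Total RNA was amplified to biotin-labelled cRNA and hybridized to Illumina human Ref8v2 arrays. The authors deposited intensity values on a linear scale, without normalization across arrays, beside detection p-values per row and array. Their methods state quality control and quantile normalization. The summary software and the build of the probe annotation are not given in the sources used here. Array medians lay between 210 and 254, and 50.1% to 52.9% of rows had a detection p under 0.05.

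The level of the negative control beads was worked out from the deposited detection p-values of 19092 rows whose values were multiples of 1 in 708 (tolerance 0.001). With limma 3.58.1 in R 4.3.3, normexp background correction (offset 16) was followed by quantile normalization and log2. Values were drawn with matplotlib 3.10.9. The offset compresses dim rows. The 11957 probes above background on at least 3 of 16 arrays were tested, and 4 of the 6 rows were among them. Windows of 4 consecutive time points were compared with limma (36 to 45 against 0 to 9 hours), and a natural cubic spline with 3 degrees of freedom tested time dependence (12 residual degrees of freedom), both with an intensity trend and Benjamini-Hochberg adjustment over all tested probes. A call is an adjusted p under 0.05. For a gene with several rows outside the 4 genes, the brightest was used. Where a row was not above background in a whole window, the lowest detected intensity stood for it and the fold is a bound.

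The 4 genes and all lists were chosen with earlier results of these data known. Named genes are the 4 genes, the 5 most alike by Pearson r, and, for each list, up to 4 called genes with the largest change, or every gene where few were tested. Gene names and promoters came from RefSeq tables (GRCh38.p14), and aliases such as DNMT2 (TRDMT1) are the file's. PLXNB2 had no row under that symbol. Both tests were checked on simulated data. Alternatives tried were cyclic loess, median scaling, a larger offset (50), uncorrected background, other detection filters, contrasts and curves, and leaving out each time point.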

Additional observations from a re-analysis of the deposited data

How the results depend on the processing

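RNASE4 and ANG kept their direction under every alternative run, and ANG kept its call except under a straight line in time (adjusted p = 0.389, limma). The log2 change of RNASE4 row ILMN_16267 was 2.95. It was 1.90 without background correction, 2.63 with an offset of 50 and 3.22 for 42 and 45 against 0 and 3 hours, and lay between 2.83 and 3.09 with each time point left out. Under a detection p below 0.01 on at least 8 arrays this row and RNASE1 were not kept. Row ILMN_21326 lay between 0.54 and 0.82 and ANG between 0.91 and 1.13. RNASE1 was not called under any alternative. The count of probes called lower, 1798, was 1029 under median scaling and 1119 with only the 8 arrays compared, and the count called higher under median scaling was 2794 against 1932. Without the step between 21 and 24 hours, 868 were called higher and 749 lower. A straight line gave 1953 time-dependent probes against 6533. These counts set the background shares, and the cause of their shifts was not tested. Without background correction the log2 steps from 33 to 36 hours, repeated after the data were seen, were 1.46, 1.27 and 1.71 for the 2 RNASE4 rows and ANG. With 1 array for each time point, dim rows such as RNASE1 limit what can be detected.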
